A study of Mus musculus with 32 samples.

Results

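The albumin gene cluster of the mouse is examined here through its polymerase occupancy. It was taken as the 4 genes Alb, Afp, Afm and Gc, selected by symbol among 27179 genes in a table of RNA polymerase II (Pol II) occupancy. All 4 were found once each, and all 4 passed the filter on low values. The table holds 8 columns, each called a profile: liver, kidney, heart and brain, each as formalin-fixed paraffin-embedded (FFPE) tissue and as frozen tissue. FFPE pieces had been fixed in 10% formalin, embedded, deparaffinized and heated at 95 °C for 20 min to release chromatin. Frozen cores had been crosslinked in 1% formaldehyde for 30 min and quenched in 125 mM glycine, so that preservation and extraction differ together. Chromatin was precipitated with an antibody to the C-terminal domain of Pol II. The series lists 2 libraries for each of 16 groups, inputs included, and these differ in library kit and sequencing date. The columns carry no replicate number, and no treatment or engineered allele is named for any group. The labels name no strain, sex or age. The table was read as Pol II values from its name, and inputs were not analysed here. The n below are profiles, not known to come from separate animals, and p-values cover no more than the spread among profiles. For each gene that spread was estimated largely from other genes (prior 19.4 degrees of freedom against 3 residual).

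The 4 genes descend from a common ancestor and encode proteins that hepatocytes secrete into plasma. Albumin (Alb) is the main carrier protein of adult plasma. Alpha-fetoprotein (Afp) is its fetal counterpart, made by yolk sac and fetal liver and silenced in liver soon after birth. Afamin (Afm) carries vitamin E and lipid-modified Wnt proteins, and the vitamin D-binding protein (Gc) carries vitamin D metabolites and captures free actin. Pol II chromatin immunoprecipitation measures polymerase lying on a gene, not the RNA or protein it yields. In a whole organ, fewer cells of a type and less polymerase per cell cannot be told apart.

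All coordinates are on GRCm38.p6. Gc lies apart from the other members, on the minus strand at chr5:89417511-89457898. Alb at chr5:90460870-90476602, Afp at chr5:90490714-90508907 and Afm at chr5:90518949-90553544 follow each other in that order on the plus strand. Between Gc and Alb lie 1002971 bases, against 14111 between Alb and Afp and 10041 between Afp and Afm. A further gene of the family, Albfm1, begins 7081 bases beyond Afm and is not a member of the set. Among the 25275 genes with a known position (93.0% of the table), none overlapped a member.

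The promoter sequences are shown because a single short motif recurs in all 4 genes. They are RefSeq sequences of GRCm38.p6, found for 4 of 4 members, each from 150 bases before to 20 after the annotated start, written 5' to 3' on the gene's own strand. Capitals mark GTTAATNAT, which was chosen after the sequences had been read. The windows are chr5:90460720-90460889 (plus strand) for Alb, chr5:90490564-90490733 (plus strand) for Afp, chr5:90518799-90518968 (plus strand) for Afm and chr5:89457879-89458048 (minus strand) for Gc.
Alb: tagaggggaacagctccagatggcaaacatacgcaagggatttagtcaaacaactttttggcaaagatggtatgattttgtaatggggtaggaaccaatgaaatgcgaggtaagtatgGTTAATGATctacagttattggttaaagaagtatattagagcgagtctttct
Afp: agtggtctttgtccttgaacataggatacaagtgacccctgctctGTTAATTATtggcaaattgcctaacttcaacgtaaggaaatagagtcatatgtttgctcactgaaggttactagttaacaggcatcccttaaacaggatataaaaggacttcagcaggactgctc
Afm: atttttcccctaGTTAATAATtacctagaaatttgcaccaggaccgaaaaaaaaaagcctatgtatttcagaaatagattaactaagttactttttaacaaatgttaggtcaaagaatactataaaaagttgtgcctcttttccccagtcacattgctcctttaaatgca
Gc: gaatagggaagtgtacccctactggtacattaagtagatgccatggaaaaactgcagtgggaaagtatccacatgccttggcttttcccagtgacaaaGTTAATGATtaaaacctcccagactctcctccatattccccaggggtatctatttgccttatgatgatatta
The match began 32 bases before the start in Alb, where it reads GTTAATGAT, and 52 bases before it in Gc, where the same letters occur. It began 105 bases before the start in Afp as GTTAATTAT and 138 bases before it in Afm as GTTAATAAT. Albfm1 had GTTAATGAT 48 bases before the start used in the promoter table. Searched on both strands, GTTAATNAT occurred in 263 of 32851 mouse promoters of 300 bases, or 0.801%. CCAAT, searched likewise, was present in the 300 bases of all 4 members and in 37.4% of all promoters. In Afm and Gc its match, which begins at -192 and -225 from the start, lies outside the stretch printed. In Afp its match on the opposite strand overlaps the capitals. TATAAA was present in Afp and Afm and in 13.6% of all promoters. These are matches of letters, and binding of any factor to them was not measured here.

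Pol II on all 4 genes was highest in liver. In the fit over both preservations, the difference from the other organs ran in size from Alb through Gc and Afm to Afp. The steps between members were not tested, and among FFPE profiles the differences of Afm and Afp were level (0.92 each on the log2 scale). Values are log2 of depth-scaled reads, with the reads behind them. For each of the 4 genes both liver profiles lay above all 6 profiles of kidney, heart and brain. The same held for 7.29% of all 26758 genes tested. Fitted with limma across the whole table, with organ and preservation as terms and Benjamini-Hochberg adjustment, 3 of the 4 members were called higher in liver, against 4.52% of genes. Afp was not called.

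Alb, the albumin gene, had a log2 level of 8.71 (390 reads) in FFPE liver and 11.41 (5116 reads) in frozen liver. In the other organs the FFPE and frozen values were 3.79 and 4.29 in kidney, 4.37 and 3.38 in heart, and 3.96 and 3.96 in brain, from 15 to 37 reads each. The lower liver profile stood 4.34 log2 units above the highest profile of any other organ. Albumin averaged 10.06 ± 1.91 in liver and 3.96 ± 0.36 in the other organs (SD, n = 2 and 6), a difference of 6.10 ± 0.42 (SE), or 68.8-fold (adjusted p = 3.82e-09). It ranked 4th among the 26758 genes by this difference. In frozen liver Alb alone took 0.235% of all reads counted in genes, and in FFPE liver 0.0451%.

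Gc, the vitamin D-binding protein gene, had a log2 level of 5.82 (52 reads) in FFPE liver and 7.59 (361 reads) in frozen liver. Its FFPE and frozen values elsewhere were 4.29 and 3.94 in kidney, 3.23 and 4.04 in heart, and 3.81 and 3.29 in brain, from 7 to 29 reads. The liver profiles were separated from the rest by 1.53. The means were 6.70 ± 1.25 in liver and 3.77 ± 0.42 elsewhere, a difference of 2.94 ± 0.41 or 7.65-fold (adjusted p = 4.65e-05), which ranked 118th.

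Afm, the afamin gene, had a log2 level of 4.93 (28 reads) in FFPE liver and 6.35 (153 reads) in frozen liver. Its FFPE and frozen values elsewhere were 4.00 and 4.75 in kidney, 3.97 and 3.55 in heart, and 4.09 and 3.21 in brain, from 12 to 51 reads. Here the FFPE liver profile exceeded the frozen kidney profile by only 0.19. The means were 5.64 ± 1.00 in liver and 3.93 ± 0.52 elsewhere, a difference of 1.72 ± 0.42 or 3.29-fold (adjusted p = 0.0111). Without the frozen liver profile the difference was 0.92 and no longer passed (adjusted p = 0.51).

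Afp, the fetal gene, had a log2 level of 4.98 (29 reads) in FFPE liver and 5.10 (64 reads) in frozen liver. Its FFPE and frozen values elsewhere were 4.61 and 3.94 in kidney, 3.72 and 3.38 in heart, and 3.86 and 3.50 in brain, from 10 to 34 reads. The lower liver profile stood 0.37 above the FFPE kidney profile, the next highest. The means were 5.04 ± 0.08 in liver and 3.84 ± 0.44 elsewhere, a difference of 1.21 ± 0.39 or 2.31-fold. This missed the threshold over all genes (adjusted p = 0.0596, unadjusted p = 0.0051). With voom precision weights the difference was 1.25 and passed (adjusted p = 0.011), and it passed under a stricter filter on low values (1.21, adjusted p = 0.048).

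Albfm1, the neighbour beyond Afm, had log2 levels of 5.41 in FFPE liver and 6.44 in frozen liver, against 3.96 to 4.69 in the 6 other profiles. Its liver difference of 1.72 ± 0.35 (adjusted p = 0.00279) was of the same size as that of Afm, and without the frozen liver profile it was 1.06 and did not pass (adjusted p = 0.31). The calls in liver rest on limma's variance trend. Fitted without it, no gene in the table passed in liver (1963 higher at an unadjusted p under 0.05), with an adjusted p of 0.092 for Alb, 0.11 for Gc and 0.21 for Afm.

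**Figure D1:**
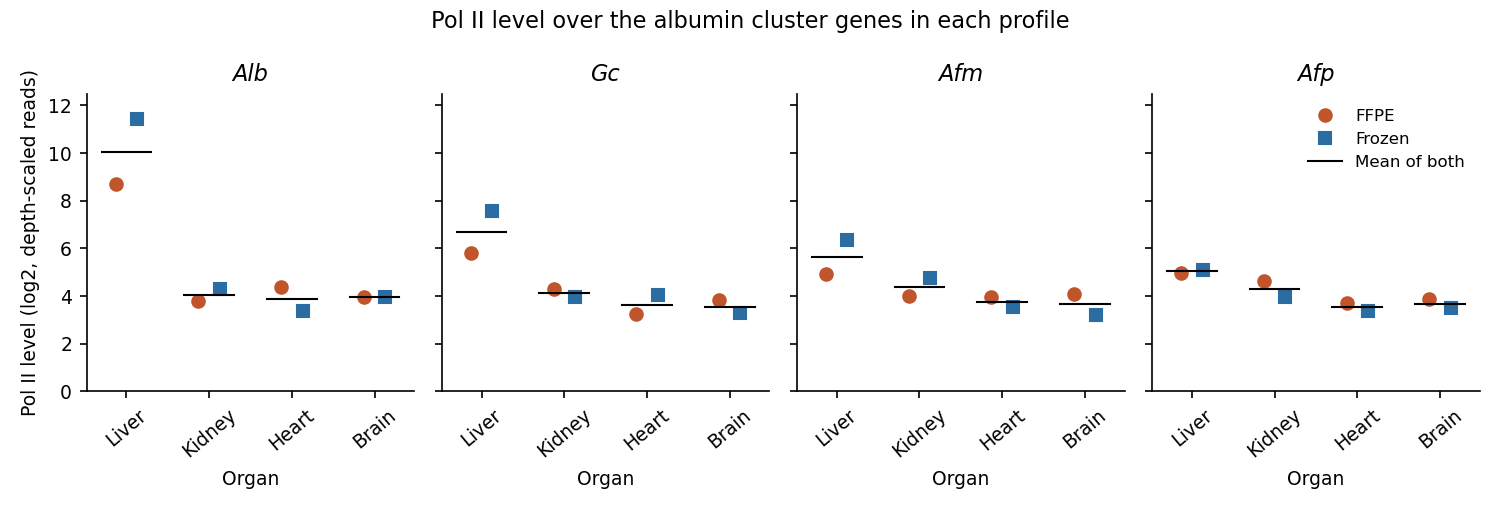
Log2 Pol II level of depth-scaled reads (vertical axis) for Alb, Gc, Afm and Afp in FFPE (circles) and frozen (squares) profiles of 4 organs, with a line at the mean of both. Liver is highest in every panel, from 8.71 and 11.41 for Alb to 4.98 and 5.10 for Afp.

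Alb and Afp could be set against each other by length, because their spans are close (15733 and 18194 bases). Per kb of gene span, Alb carried 15.6 times the reads of Afp in FFPE liver (exact 95% interval 10.7 to 23.5) and 92.4 times in frozen liver (72.3 to 120). In the other 6 profiles the ratio lay between 0.646 (FFPE kidney) and 1.85 (FFPE heart), and every interval included 1. The adult and the fetal gene were thus separated in the liver profiles and not distinguishable at this depth elsewhere. These intervals cover counting error only.

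A rough scale for these levels is the median gene of similar span. Genes with a median span of 14956 bases had a median of 25 reads in FFPE liver and 53 in frozen liver, and the next class, with a median span of 21337 bases, had 28 and 58. Afp, with 29 and 64 reads there, was near these medians. In brain those 2 classes had medians of 50 and 56 reads in FFPE tissue and 49 and 54 in frozen tissue. Alb, with 31 and 29 reads in brain, and Afp, with 29 and 21, were below them. Reads did not scale with span (a median of 6 in the decile of the shortest spans and 73 in that of the longest in frozen liver, for median spans of 948 and 189909 bases), so members of unlike span were not ranked against each other by level.

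The order of organs was liver first and kidney next for every member, with heart and brain exchanging the last places. Only steps that involve liver passed a pairwise limma test. Alb was higher in liver than in kidney by 6.02 (adjusted p = 1.6e-07), than in heart by 6.19 (6.8e-08) and than in brain by 6.10 (1.1e-07). Gc was higher by 2.59 than in kidney (0.0029), 3.07 than in heart (0.00029) and 3.15 than in brain (0.00017). Afm passed against heart (1.88, adjusted p = 0.025) and brain (2.0, adjusted p = 0.013), while its difference from kidney was 1.27 (0.22). Afp passed against none, with 0.76 against kidney (0.52), 1.49 against heart (0.061) and 1.36 against brain (0.081). The shares of all genes called higher in liver were 2.34% against kidney, 3.65% against heart and 5.35% against brain. The number of genes behind the kidney share became 293 without FFPE kidney, 152 without frozen kidney, 192 without frozen liver and 1205 without FFPE liver. The 978 behind the heart share became 595 without FFPE heart, 412 without frozen heart and 463 without frozen liver, and the 1432 behind the brain share 797 without FFPE brain, 422 without frozen brain and 576 without frozen liver. In these tests 2 profiles stand against 2. Gc lost its call against kidney without the frozen kidney (2.08, adjusted p = 0.19) or frozen liver (1.69, 0.2) profile. Afm lost its call against heart without FFPE heart (2.31, 0.067), frozen heart (1.46, 0.28) or frozen liver (1.08, 0.4), lost it against brain without frozen brain (1.26, 0.46) or frozen liver (1.2, 0.36), and gained a call against kidney without FFPE liver (2.07, 0.023). With voom weights Afp passed against heart (1.54, adjusted p = 0.047) and brain (1.39, 0.025) and Afm against kidney (1.37, 0.031). Under the stricter filter Afp passed against heart (1.49, 0.049), and scaled to silent receptor genes Afm did not (1.71, 0.06).

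Among kidney, heart and brain, limma called 0 of the 12 pairwise differences of the members, 0 at an unadjusted p under 0.05 and 0 in every alternative setting run, voom weights included. The largest of them was 0.73 in size, and 9.27% of all genes passed in at least 1 such pair. In single profiles the reads of Afp in FFPE liver were 1.29 times those in FFPE kidney after depth scaling (exact 95% interval 0.758 to 2.18), and those in frozen liver 2.25 times those in frozen kidney (1.43 to 3.62). The frozen ratios were 3.39 (1.91 to 6.4) over heart and 3.08 (1.86 to 5.31) over brain, and the FFPE ratios 2.48 (1.17 to 5.7) and 2.18 (1.26 to 3.77). These ratios set 1 profile against 1 and their intervals cover counting error only.

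Alb stood out less from the other organs in the FFPE liver profile than in the frozen one. The liver difference of Alb was 4.67 in FFPE tissue (25.5-fold) and 7.54 in frozen tissue (186-fold), and it ranked 3rd and 5th among all genes in these profiles. Gc had 2.04 in FFPE tissue and 3.83 in frozen tissue, Afm had 0.92 and 2.52, and Albfm1 had 1.06 and 2.37. Afp had 0.92 and 1.49. The liver difference was positive in both preservations for every member. Among the FFPE profiles alone, where 1 liver profile stands against 3 and is assumed to vary like them, limma called 4 genes in the whole table. Alb was among these 4, while Gc (adjusted p = 0.72) and Afm (0.98) were not.

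**Figure D2:**
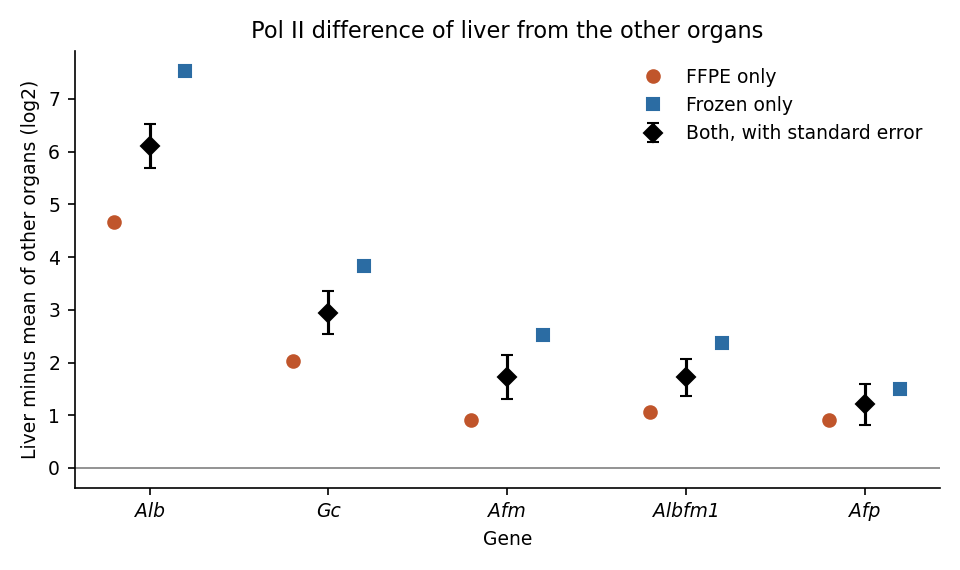
Difference of liver from the mean of kidney, heart and brain (log2, vertical axis) for the 4 members and Albfm1, in FFPE profiles (circles), frozen profiles (squares) and both (diamonds with the standard error of the limma fit). The difference is larger in frozen tissue for each gene shown, by most for Alb (4.67 in FFPE and 7.54 in frozen tissue).

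Within liver, the FFPE minus frozen difference of Alb was -2.70 on the log2 scale, a depth-scaled read ratio of 0.154 (exact 95% interval 0.138 to 0.17). The ratio was 0.29 (0.213 to 0.389) for Gc and 0.369 (0.237 to 0.554) for Afm. For Afp it was 0.913 (0.567 to 1.44), which includes 1. A value at or below -1 on the log2 scale was met by 3 of 4 members, against 14.4% of all genes, and with 1 profile on each side there is no test. Outside liver the FFPE minus frozen differences of Alb were -0.50 in kidney, 0.99 in heart and 0.00 in brain. Those of Gc were 0.34, -0.80 and 0.53, those of Afm -0.75, 0.42 and 0.88, and those of Afp 0.67, 0.34 and 0.36, in the same order of organs.

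The FFPE minus frozen difference in liver was then set against those in the other 3 organs, by limma. Liver gives a single difference with no spread of its own, so the standard errors and p-values rest on the other organs and on the spread shared across genes. Alb had 15 to 37 reads in each profile of those organs, where a fall in FFPE tissue could hardly show. The contrast therefore cannot tell an effect particular to liver from one on any gene with a high Pol II level. The difference, liver minus the others, was -2.87 ± 0.52 for Alb (adjusted p = 0.00491), the only member called, against 0.419% of genes called lower. Those 112 genes became 524 without FFPE heart, 528 without frozen heart, 255 with voom weights, 41 scaled to silent receptor genes, 62 without mitochondrial genes and scaling factors, and 2 after quantile normalization. The differences were -1.79 ± 0.68 for Gc (adjusted p = 0.27), -1.60 ± 0.73 for Afm (0.39) and -0.57 ± 0.75 for Afp (0.85). Quantile normalization brought the value for Alb to -1.07 (adjusted p = 0.58), and without a trend it did not pass (0.53). Gc passed with voom weights (-1.94, adjusted p = 0.042) and without FFPE heart (-2.21, 0.018) or frozen heart (-2.21, 0.024).

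Alb was not alone in this. The 12 hepatocyte genes of the marker list, such as Tat (tyrosine aminotransferase) and the fibrinogen genes Fga and Fgb, had FFPE minus frozen values in liver between -3.31 and -1.03, with a median of -2.26. The median over all genes tested was -0.02. All 12 had a smaller liver difference in FFPE than in frozen tissue. Their summed level was 2789 RPM in FFPE liver and 13030 RPM in frozen liver, against 185 to 320 RPM in the other 6 profiles. RPM are reads relative to the scaled total of the profile, which is its read total times a scaling factor. That factor was 1.08 for FFPE liver and 0.862 for frozen liver, which widens the gap between their sums. FFPE liver also had the fewest reads of any profile and frozen liver the most. The part of depth in the difference was not tested. Marker lists of the other organs also summed lower in FFPE than in frozen tissue of their own organ. Cardiomyocyte genes had 2883 and 5975 RPM in heart, proximal tubule genes 1078 and 1454 in kidney, and neuron genes 544.1 and 600.2 in brain. The cause of these differences was not tested.

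Averaged over the 4 organs, FFPE against frozen gave no call for a member by limma: 0 of 4 passed, 0 at an unadjusted p under 0.05, against 0.576% of genes. Voom weights called 1, Alb (-1.76, adjusted p = 0.0016). The differences were -0.55 ± 0.36 for Alb (adjusted p = 0.688), -0.43 ± 0.35 for Gc (0.766), -0.22 ± 0.36 for Afm (0.903) and 0.31 ± 0.34 for Afp (0.835). Liver set the sign for 3 of them: without either of its profiles the values were 0.16 for Alb, 0.02 for Gc and 0.18 for Afm.

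**Figure D3:**
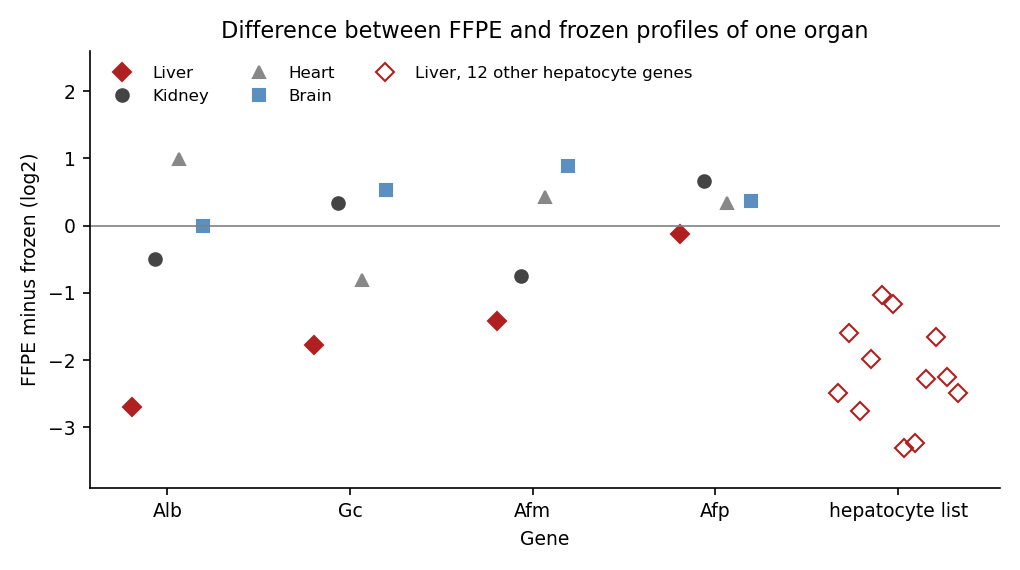
FFPE minus frozen log2 level within each organ (vertical axis) for the 4 members, and in liver for the 12 genes of the hepatocyte list (open diamonds). In liver Alb is at -2.70, inside the range of the hepatocyte genes (-3.31 to -1.03), and Afp is at -0.12, above that range.

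Most genes around the cluster, like most genes of the whole table, were not called in liver. Of 31 other genes starting within 1 Mb of a member, 2 were called higher in liver and 0 lower by limma, against 4.52% of all genes higher, and their median difference was 0.14, against -0.02 for all genes. The 2 were Albfm1, described above, and Cxcl1, a neutrophil-attracting chemokine gene (1.88 ± 0.49, adjusted p = 0.018). Cxcl1 did not pass without frozen heart (1.57, adjusted p = 0.058), frozen kidney (1.77, 0.071) or frozen liver (1.04, 0.56). The genes flanking Alb on the side away from Afp had differences of 0.39 ± 0.37 (Gm9958) and 0.06 ± 0.21 (Ankrd17). Those flanking Gc had 0.51 ± 0.62 (Npffr2) and -0.12 ± 0.21 (Slc4a4, a bicarbonate transporter). No gene between Gc and Alb passed.

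**Figure D4:**
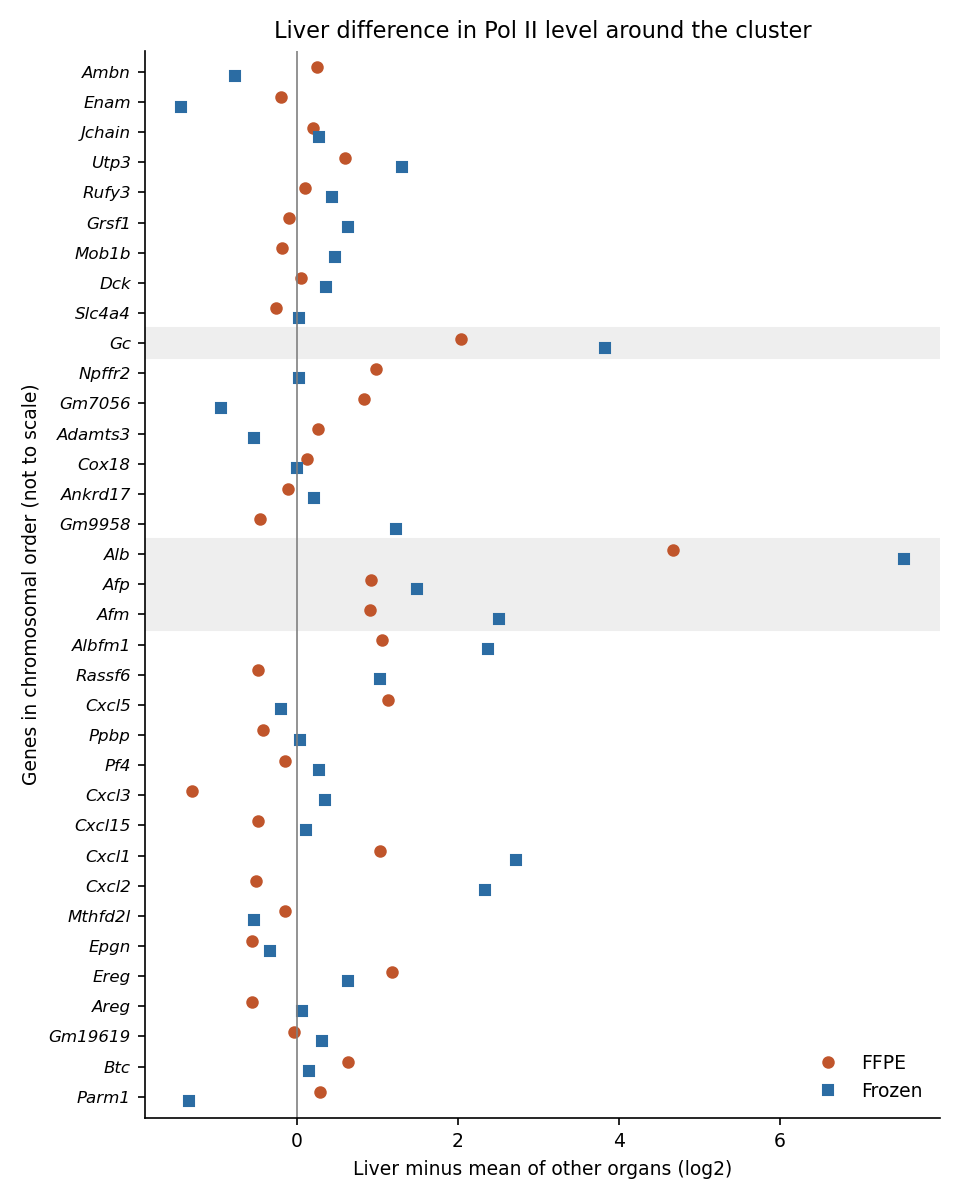
Difference of liver from the mean of the other organs (log2, horizontal axis) for the 4 members (grey bands) and 31 genes starting within 1 Mb of them, in chromosomal order and not to scale, in FFPE (circles) and frozen (squares) profiles. Alb reaches 4.67 and 7.54, while Gm9958 and Ankrd17 beside it lie between -0.45 and 1.23.

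Transcription factors that bind the promoters and enhancers of this cluster were largely higher in liver too. Of 16 such genes, limma called 12 higher and 0 lower, against 4.52% of all genes called higher. Their median was 1.55, against -0.02 over all genes. The largest difference was that of Hnf4a, a nuclear receptor gene (2.77 ± 0.30). Its FFPE and frozen log2 levels were 7.22 and 7.89 in kidney, against 7.40 and 9.21 in liver. In heart and brain they ran from 4.31 to 4.69, so frozen kidney stood above FFPE liver. Next came the forkhead and cut-homeobox factor genes Foxa3 (2.65 ± 0.40), Onecut1 (2.58 ± 0.49) and Foxa2 (2.42 ± 0.39). Without the frozen liver profile the count of 12 became 4, and Foxa3 (1.76, adjusted p = 0.062) and Onecut1 (1.2, 0.4) did not pass.

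Repressors of Afp, with relatives of Zhx2, gave no call in liver. Of the 5 genes of this list limma called 0 in either direction, 0 at an unadjusted p under 0.05 and 0 in every alternative run, with a median of 0.22. Over the whole table it called 1210 of 26758 genes higher and 907 lower, so 0 calls in so short a list do not set it apart. Zhx2, a zinc-finger and homeobox repressor of Afp in mouse liver, had a difference of -0.24 ± 0.27 (adjusted p = 0.72), with 68 reads in FFPE liver and 66 in frozen liver. Zbtb20, another repressor of Afp, had 0.22 ± 0.24 (0.71), with 83 and 159 reads. Of 8 further genes of fetal liver, limma called 0, again too short a list to set apart from all genes, and 1 had an unadjusted p under 0.05. Their median was -0.25. H19, an imprinted noncoding RNA gene, had -1.13 ± 0.51, Hmga2 had -0.65 ± 0.38, Gpc3 0.41 ± 0.86 and Lin28b -0.34 ± 0.29. Hmga2 alone passed when FFPE liver was left out (-1.63, adjusted p = 0.0093). Their summed level in liver was 247 RPM in FFPE tissue and 172 RPM in frozen tissue, within or below the 216 to 305 RPM of the other profiles.

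Genes that handle the proteins of the cluster fell on both sides. For albumin, Fcgrt and B2m encode the receptor that returns albumin to the circulation, and Lrp2 and Cubn the receptors that reclaim it in the kidney tubule. Of 8 such genes, 2 were called higher in liver, B2m (1.21 ± 0.33) and Fcgrt (1.07 ± 0.30), and 1 lower, Lrp2 (-0.72 ± 0.22, adjusted p = 0.044), while Cubn had -0.57 ± 0.22 (0.14). Their median was 0.07. Of all genes, 4.52% were called higher in liver. Lrp2 had 828 reads in FFPE kidney and 1301 in frozen kidney, the highest of its 8 values. In FFPE tissue heart stood above liver for B2m (log2 6.01 against 5.29) and Fcgrt (5.99 against 5.73). In frozen tissue heart stood below liver for both (5.37 against 6.36 and 5.32 against 6.30). These calls turned on single profiles: leaving out frozen brain, frozen heart, FFPE kidney or frozen liver ended both higher calls, leaving out frozen kidney left 1 of them, and the lower call was kept only without FFPE liver, when 2 genes of the list were lower.

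Over the 26758 genes tested, 1210 (4.52%) were called higher in liver and 907 lower. For Gc, the vitamin D list of 8 genes had 3 higher and 2 lower, with a median of -0.45. The higher ones were Cyp27a1 (2.13 ± 0.31) and Cyp2r1 (1.81 ± 0.44), which hydroxylate vitamin D, and Rxra (1.76 ± 0.27), the partner of the vitamin D receptor. The lower ones were the receptor gene Vdr itself (-1.38 ± 0.32) and Lrp2. Both were highest in kidney, with FFPE and frozen log2 levels of 6.94 and 6.98 for Vdr and 9.20 and 9.41 for Lrp2. Vdr had 4.93 and 3.22 in liver, against 4.10 to 5.16 in heart and brain. Lrp2 had 6.98 and 6.45 in liver, against 6.28 to 6.69 in heart and brain. Cyp2r1 did not pass without FFPE liver (1.88, adjusted p = 0.06) or frozen liver (1.75, 0.19), and Vdr did not without frozen kidney (-1.22, 0.055) or frozen liver (-0.7, 0.37). For Afm, 5 of 6 genes of vitamin E transport and lipoprotein partners were called higher and 0 lower, with a median of 1.96. They included the apolipoprotein genes Apoa1 (4.25 ± 0.46) and Apob (3.73 ± 0.30), the vitamin E transfer protein gene Ttpa (2.22 ± 0.32) and Cyp4f14 (1.69 ± 0.43), which lost its call without FFPE kidney (1.49, adjusted p = 0.051) or frozen liver (1.03, 0.44). Without frozen liver the count of 5 became 3. Apoa1 and Apob also stand in the hepatocyte list.

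The organ labels were checked on marker lists, with 4.52% of all genes called higher in liver. Of 12 hepatocyte genes, 12 were called higher in liver, with a median of 4.37, led by Tat (6.23 ± 0.42), Fgb (5.89 ± 0.52), Ahsg (5.48 ± 0.46) and Fga (5.15 ± 0.44). Cardiomyocyte genes summed to 2883 and 5975 RPM in FFPE and frozen heart, against at most 352.4 elsewhere, and proximal tubule genes to 1078 and 1454 in FFPE and frozen kidney, against at most 280.4 elsewhere. Neuron genes summed to 544.1 and 600.2 RPM in FFPE and frozen brain, against at most 142.7 elsewhere. Among other cells of liver, 3 of 5 endothelial genes were called higher, 1 of 5 bile duct genes (Sox9), and 0 of 5 Kupffer cell genes, of which 0 had an unadjusted p under 0.05. Of 5 stellate cell genes, 0 were called higher and 1 lower, Des (-1.54 ± 0.33), which was highest in heart (log2 6.96 and 7.33 in FFPE and frozen tissue). Of erythroid genes, which fetal liver expresses, 1 of 6 was higher (Alas2), and the haemoglobin genes measured had 0 to 3 reads in either liver profile, though near-identical copies may share them. Without frozen liver the counts were 1 for endothelial, 0 for bile duct and 0 for erythroid genes. Sox9 also lost its call without FFPE brain, frozen brain, frozen heart or FFPE kidney, and Alas2 without frozen brain or FFPE liver. The mitochondrial share of reads was 25.6% for FFPE heart and 19.2% for FFPE kidney, against 7.73% to 12% for the other profiles. Without those 2 profiles the liver differences were 6.64 for Alb, 3.07 for Gc, 1.75 for Afm and 1.33 for Afp.

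Genes with profiles most like each member were sought by Pearson's r over the 8 profiles, over 22319 genes whose log2 values averaged 2 or more. For Alb these were Hyou1 (r = 0.998), an endoplasmic reticulum chaperone gene, Serpina1c (0.995), Tat (0.994), Mug1 (0.993) and Cps1 (0.992). For Gc they were Egfros (0.992), Cyp2a12 (0.99), Ces3a (0.989), the complement gene C3 (0.989) and Fga (0.986). For Afm they were Ndufaf6 (0.988), Lbp (0.976), Rffl (0.973), Gjb2 (0.971) and Aftph (0.969), and for Afp Sgk3 (0.97), Lpin2 (0.969), Gm10768 (0.967), Ybey (0.964) and F12 (0.963), the coagulation factor XII gene. Serpina1c, Mug1, Cyp2a12 and Ces3a belong to multigene families whose reads may be split among copies. The profiles share depth and preservation, and 2 of 8 points are liver. Among the members, r over 8 profiles ranged from 0.811 (Afp and Afm) to 0.948 (Alb and Gc). Over the 6 profiles without liver it ranged from -0.536 (Alb and Gc) to 0.566 (Afp and Gc).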

How the data were processed

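The members and gene lists were chosen with earlier results of these data known. The submitters' processing notes name Bowtie2, featureCounts, limma and the build mm10, with roles and versions not stated. The values deposited by the authors are log2 levels whose steps between genes are those of counts with 0.5 reads added and divided by scaled totals. With each column's minimum set to 0 reads, 100% of values came out whole within a relative tolerance of 1e-06. Totals ranged from 864816 (FFPE liver) to 2178329 (frozen liver) reads. Strand of counting is not given.

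The filter (log2 of 0 or more in 2 or more profiles) left 26758 genes. limma 3.58.1 in R 4.3.3 was run with terms for organ and preservation and a variance trend (3 residual degrees of freedom, prior 19.4), at an adjusted p under 0.05; the FFPE effect in liver was fitted as 1 difference against 3, the lone one being assumed to vary like the others. The fit was tested on simulated data. Named genes were all members, the nearest neighbours and those past the threshold, the 5 most alike per member, up to 4 per list by size of difference, and Zhx2, Zbtb20, Lrp2 and Cubn. Exact binomial (Clopper-Pearson) intervals at 95% cover counting error only. Gene positions come from RefSeq (GRCm38.p6; 93.0% of genes matched). Exonic lengths were not used here, so a planned comparison with silent receptor genes per length is not reported. Alternatives covered scaling, weights, filters, the trend, preservation and each profile left out.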

Additional observations from a re-analysis of the deposited data

Results flagged for a closer look

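The FFPE minus frozen difference of Alb in liver differed from that in the other organs by -2.87 (limma, adjusted p = 0.00491). Liver enters this fit as a single difference against 3, assumed to vary like them. Alb was at -2.70 in liver, and at -0.50 in kidney, 0.99 in heart and 0.00 in brain. Outside liver it had 15 to 37 reads per profile, where a fall in FFPE tissue could hardly show. Of the 4 members it was the only one past the threshold, and its value fell within the range of 12 hepatocyte genes in liver (-3.31 to -1.03). After quantile normalization the difference was -1.07 (adjusted p = 0.58), and without a variance trend it was -2.87 and did not pass (0.53). With a single FFPE and a single frozen liver profile, preservation, extraction and the tissue pieces cannot be told apart.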

How the results depend on the processing

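No paired analysis was possible because the columns carry no replicate number to use as a block; organ, which pairs each FFPE with a frozen column, is a term of every fit over both. Gene lengths other than span were not run. Of 19 alternatives, 8 leave out 1 profile. Liver differences of Alb (4.67 to 7.54 with 1 profile left out), Gc (2.04 to 3.83), Afm (0.92 to 2.52) and Afp (0.92 to 1.49) kept their sign in all. Without a trend they were 6.10 (adjusted p = 0.092) for Alb, 2.94 (0.11) for Gc and 1.72 (0.21) for Afm. Afp passed with voom weights (1.25) and a stricter filter (1.21). Gc did not pass among FFPE profiles alone (2.04), nor Afm among FFPE (0.92) or frozen (2.52) profiles alone. The FFPE effect over organs was -1.76 for Alb with voom weights, and with 1 profile left out -1.07 to 0.16 for Alb, -0.58 to 0.18 for Afm and -0.75 to 0.02 for Gc. The FFPE effect in liver set against the other organs was -1.07 for Alb after quantile normalization and -2.87 without a trend. It was -3.20 to -2.45 for Alb with 1 profile left out. For Gc it was -1.94 with voom weights and -2.21 to -1.54 with 1 left out. Genes higher in liver numbered 1210 (907 lower), 773 (349) scaled to silent receptors, 1057 (1248) without mitochondrial genes and scaling factors, 1892 with voom weights, 153 in frozen and 4 in FFPE profiles alone, 0 without a trend (limma; 1963 at an unadjusted p under 0.05), and 324 to 1642 with 1 left out. Genes changed in FFPE numbered 154, 310 with voom weights, 100 with added reads in proportion to depth, 90 without FFPE heart and kidney, 0 without a trend (2118 at an unadjusted p under 0.05), and 23 to 112 with 1 left out. The median of all genes moved to -0.14 in liver and 0.11 in FFPE without mitochondrial genes, and to -0.20 in FFPE with silent receptors. Signs turned for Ankrd17 (-0.16 by quantile, -0.06 without mitochondrial genes, -0.11 in FFPE alone; -0.11 to 0.22 with 1 left out), Gm9958 (-0.45 in FFPE alone; -0.45 to 1.23), Slc4a4 (0.03 in frozen alone; -0.26 to 0.03), Zhx2 (0.36 in FFPE alone; -0.83 to 0.36), Hmga2 (0.33 in FFPE alone; -1.63 to 0.33) and Gpc3 (-0.33 to 1.16). Of 570 recomputed list counts, 105 moved by over 1.5 times. The causes were not tested. Depth limits the members outside liver, which had 7 to 51 reads per profile. It also limits Afm (28 reads), Afp (29) and Gc (52) in FFPE liver.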
